A study of Homo sapiens with 20 samples.

Results

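Matrix metalloproteinases (MMPs) and their tissue inhibitors (TIMPs) were followed at the transcript level in MDA-MB-468, a triple-negative breast cancer epithelial cell line with high levels of the EGF receptor, while EGF induced an epithelial-mesenchymal transition (EMT). The 10 genes were MMP1, MMP3, MMP7, MMP9, MMP10, MMP13, MMP14, TIMP1, TIMP2 and TIMP3, and they were chosen by gene name from the 60271 genes of the deposited count table. Each of these names occurred once in the table. All cells were seeded, serum-starved and harvested together, and they were either left without EGF (control) or given 50 ng/mL EGF for the last 12, 24, 48 or 72 h before harvest. Each of the 5 groups had 4 libraries, described as biological replicates of this 1 cell line, with no further agent or genetic change. Libraries held between 15611961 and 25856953 counted reads. Levels are given as CPM, the reads of a gene brought to a common library size, with TMM factors between libraries, which assume that most genes do not change.

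MMPs are zinc-dependent endopeptidases that cut collagens, laminins, fibronectin and other proteins outside the cell. Most are secreted as inactive proenzymes, and a smaller subgroup, the membrane-type MMPs, stays anchored at the cell surface. TIMPs bind the active site of MMPs one to one and block them. TIMP2 has an additional role, since it holds proMMP2 at the cell surface next to MMP14, where proMMP2 is activated. In EMT these genes are studied because cells that leave an epithelial sheet have to pass a basement membrane. A transcript level says nothing by itself about the amount of active enzyme.

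EGF-treated cells had more MMP1, MMP7, MMP14, TIMP1 and TIMP2 transcript than control cells at all 4 times with TMM scaling, although the MMP14 difference was not called under some other scalings at 12 h and 48 h. MMP7, a small secreted protease called matrilysin, was 2.65-fold higher at 12 h and 5.35-fold higher at 72 h. MMP1, the interstitial collagenase, went from 0 reads in every control library to between 27 and 73 reads at 72 h. TIMP3 had a course of its own, falling to 0.342-fold of control at 12 h and standing 1.50-fold above control at 48 h. MMP3 and MMP10, the stromelysins, had no read in any library, and MMP9 and MMP13 were close to that limit.

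Of the 10 genes, 6 passed the filter on low counts and were tested together with all other genes (16522 in total) in edgeR (quasi-likelihood test, p-values adjusted after Benjamini and Hochberg). MMP3, MMP9, MMP10 and MMP13 did not pass. MMP1 passed through its 72 h libraries, so its difference from the other groups is partly given by the filter. At an adjusted p under 0.05, the genes called at 12 h were 5 higher and 1 lower, and of all genes tested 69.4% were called there, 32.9% as higher and 36.5% as lower. The split was again 5 higher and 1 lower after 24 h, against 58.8% of all genes called, 29.2% higher and 29.6% lower. At 48 h and at 72 h the count was 6 higher and 0 lower. The corresponding shares of all genes were 45.8% for 48 h (24.0% higher and 21.8% lower) and 61.6% for 72 h (30.6% higher and 31.0% lower). More than 4 in 10 of all tested genes were thus called at every time, so a call alone says little about an MMP or a TIMP, and the sizes and courses below carry more.

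**Figure D1:**
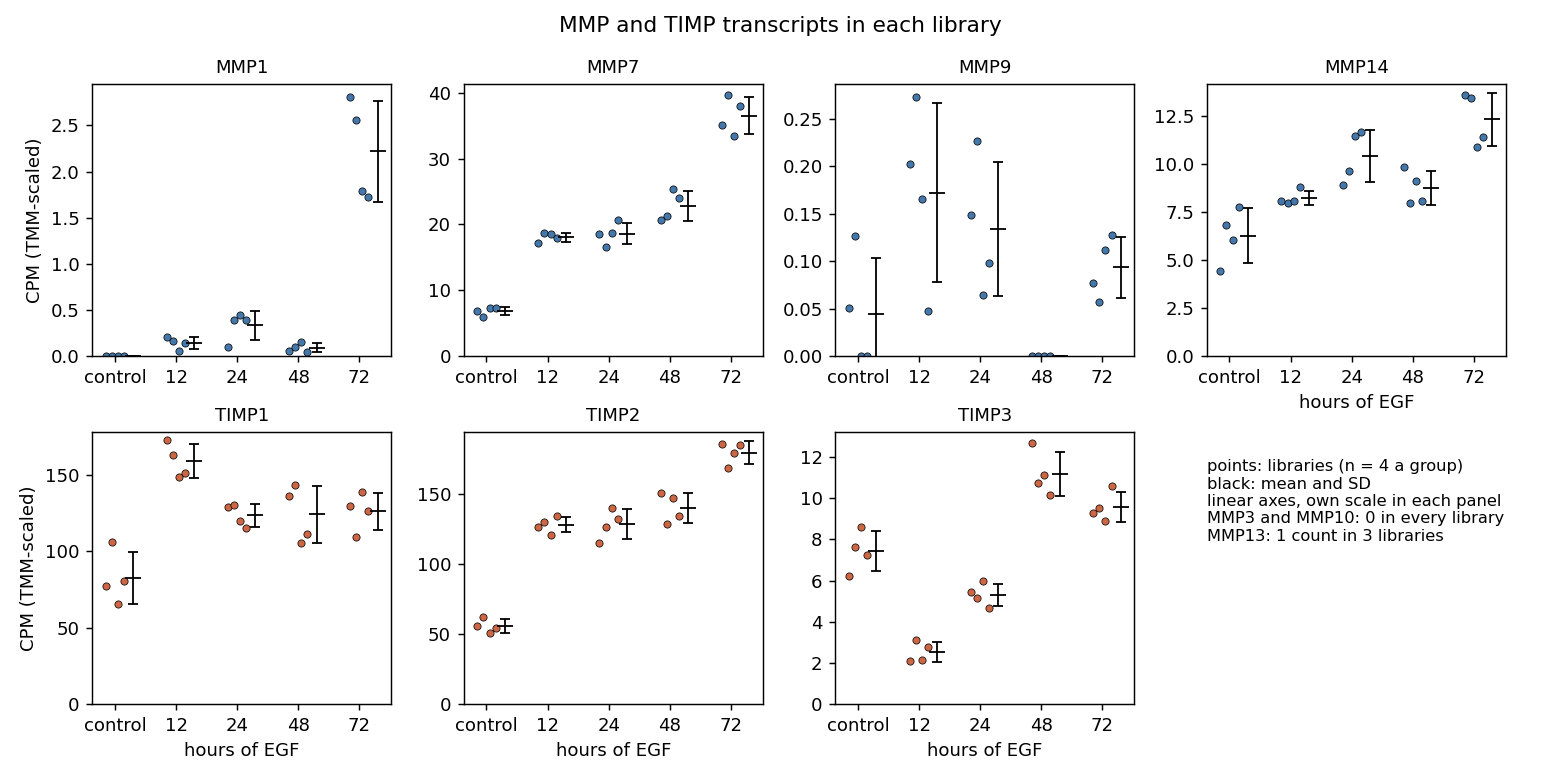
TMM-scaled CPM (linear axes, a scale of its own in each panel) of MMP1, MMP7, MMP9, MMP14 and TIMP1 to TIMP3 in the control group and at each time of EGF. Points are the 4 libraries of a group and black marks are the mean and SD, with bars that would reach below 0 ended at the axis. MMP7 and TIMP2 were highest at 72 h, TIMP1 was highest at 12 h, and TIMP3 went from its lowest level at 12 h to its highest at 48 h.

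Of the 9 MMP genes that lie side by side on chromosome 11 within 435.2 kb (GENCODE 29, GRCh38, all on the minus strand), 2 passed the filter. In order of position these genes are MMP7, MMP20, MMP27, MMP8, MMP10, MMP1, MMP3, MMP12 and MMP13. MMP7 collected 8179 reads over the 20 libraries and MMP1 collected 220, while the other 7 genes had at most 3 reads in any library and MMP27, MMP10 and MMP3 had 0. MMP7 and MMP1 are therefore separated in the genome by genes with hardly a read.

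The proximal promoters of MMP7 and MMP10 are shown because the genes have similar elements upstream of the start site but lay at opposite ends of the expression range, and that of TIMP3 because its course differed from the others. RefSeq promoter sequences (GRCh38.p14) were matched for 5 of the 10 genes, namely MMP7, MMP10, MMP14, TIMP1 and TIMP3. The bases -180 to -11 from the start site are printed 5′ to 3′ on the strand of the gene. Capitals mark matches to TGANTCA (the AP-1 site), to AGGAAG or its reverse complement CTTCCT (the ETS core used by PEA3 factors) and to TATAAA on the gene's strand. TGANTCA is its own reverse complement, so a match stands on both strands. The MMP7 window lies at chr11:102530758-102530927, the MMP10 window at chr11:102780639-102780808 (both minus strand) and the TIMP3 window at chr22:32801525-32801694 (plus strand).
MMP7: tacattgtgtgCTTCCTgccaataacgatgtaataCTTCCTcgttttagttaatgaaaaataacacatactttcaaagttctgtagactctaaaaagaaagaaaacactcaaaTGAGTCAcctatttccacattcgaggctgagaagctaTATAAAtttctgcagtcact
MMP10: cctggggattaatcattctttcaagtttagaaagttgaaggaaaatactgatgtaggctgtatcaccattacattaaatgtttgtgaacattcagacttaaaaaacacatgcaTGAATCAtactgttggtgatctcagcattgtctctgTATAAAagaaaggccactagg
TIMP3: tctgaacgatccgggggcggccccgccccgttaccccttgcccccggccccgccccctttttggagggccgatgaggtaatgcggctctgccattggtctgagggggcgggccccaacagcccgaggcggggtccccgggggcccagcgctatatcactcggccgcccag

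The AP-1 letters begin at -67 in both MMP7 and MMP10, and TATAAA begins at -30 in MMP7 and at -31 in MMP10. MMP7 additionally has CTTCCT at -169 and at -145, which the MMP10 window lacks. TIMP1 has AGGAAG at -87, within the 113 of 170 window bases that GENCODE 29 annotates as exon, and no match was found for MMP14 or TIMP3. Matches were searched in the 250 bases upstream of the start site, a longer stretch than the printed window. Over these 250 bases, 6.57% of 35116 promoters hold TGANTCA, 28.7% hold AGGAAG on either strand and 6.80% hold TATAAA on the gene's strand. MMP7 and MMP10 thus share their AP-1 and TATA letters within 1 base of each other, while 1 of them was the most abundant MMP gene of the 10 and the other was not seen. A match is a description of the letters and not evidence of a factor at the site.

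MMP1 (ENSG00000196611, chr11:102789920-102798160, minus strand, 10 merged exons) encodes interstitial collagenase, which opens the triple helix of fibrillar collagens. Its 4 control libraries had 0 reads each, which allows up to 0.163 CPM in the shallowest of them (3 reads). At 12 h the libraries had 4, 3, 1 and 3 reads, at 24 h 2, 7, 7 and 8, and at 48 h 1, 2, 4 and 1. At 72 h they had 73, 45, 32 and 27 reads, or 2.81, 2.56, 1.79 and 1.72 CPM. Every library at 72 h lay above every library of the other groups, and every EGF library lay above every control library.

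MMP1 was called higher than control at each time, with the smallest adjusted p in edgeR at the last time (3.78e-10) and the largest at 48 h (0.00492). Since MMP1 passed the filter through its 72 h libraries, its differences between 72 h and the other groups are partly given by the filter. With control set to the limit of 3 reads per library, MMP1 was at least 2.43-fold higher at 24 h and at least 16.2-fold higher at 72 h. No fold is given for 12 h and 48 h, where the level itself was near that limit. From 24 h to 48 h MMP1 fell by 1.77 on the log2 scale (SE 0.547, adjusted p = 0.00832), and 3 of 4 libraries at 48 h lay under the lowest library at 24 h, replicate 1 with 2 reads. From 48 h to 72 h the log2 fold change was 4.52 (SE 0.426, adjusted p = 4.43e-08). Between 24 h and 12 h it was 1.17 (SE 0.514), which missed the threshold (adjusted p = 0.0548) but was called with libraries scaled by their totals (adjusted p = 0.0319), with upper quartiles (adjusted p = 0.0358) and without replicate 1 of 24 h (log2 1.49, adjusted p = 0.011). Of the exon bases of MMP1, 7.61% overlap WTAPP1 on the opposite strand, and WTAPP1 had at most 2 reads in any library.

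MMP3 (ENSG00000149968, chr11:102835801-102843803, minus strand) and MMP10 (ENSG00000166670, chr11:102770503-102780628, minus strand) encode stromelysins, which cut a wide range of matrix proteins and can activate other proMMPs. Neither gene had a read in the 20 libraries. Over all 403058855 reads, a count of 0 allows a level of up to 0.00744 CPM. MMP13 (ENSG00000137745, chr11:102942995-102955734, minus strand), a collagenase that also cuts type II collagen, had 1 read in replicate 3 at 48 h, 1 in replicate 1 at 72 h and 1 in replicate 3 at 72 h. No difference in these genes was detectable at this depth, and such limits cover counting error only.

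MMP7 (ENSG00000137673, chr11:102520508-102530753, minus strand, 6 merged exons) encodes matrilysin, a protease that lacks the hemopexin domain of most other MMPs and is made mainly by epithelial cells. The control libraries had 6.83, 5.93, 7.30 and 7.26 CPM. After 12 h of EGF they had 17.2, 18.6, 18.6 and 17.9 CPM, and after 24 h 18.5, 16.6, 18.7 and 20.6 CPM. The libraries of 12 h and 24 h overlapped with each other and lay above the control range. At 48 h the values were 20.6, 21.2, 25.4 and 24.0 CPM, and at 72 h they were 35.1, 39.7, 33.4 and 38.0 CPM. The lowest library at 72 h was above the highest at 48 h.

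MMP7 was upregulated 2.65-fold at 12 h (log2 fold change 1.40, SE 0.0957, adjusted p = 5.34e-12), and the 24 h value of 2.73-fold (adjusted p = 5.17e-12) did not differ from it beyond the spread (24 h against 12 h: log2 0.04, SE 0.0896, adjusted p = 0.714). At 48 h MMP7 was 3.35-fold above control (adjusted p = 3.07e-13) and 1.23-fold above 24 h (adjusted p = 0.00723). At 72 h it was 5.35-fold above control (log2 fold change 2.42, SE 0.0946, adjusted p = 2.26e-16) and 1.60-fold above 48 h (adjusted p = 1.44e-06). The order of levels was therefore 72 h, 48 h, then 24 h and 12 h without a called difference, then control.

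MMP9 (ENSG00000100985, chr20:46008908-46016561, plus strand, 13 merged exons) encodes gelatinase B, which cuts denatured collagen and type IV collagen of basement membranes. The control libraries had 1, 3, 0 and 0 reads. They had 4, 5, 3 and 1 reads at 12 h, 3, 4, 1 and 2 at 24 h, none at 48 h, and 2, 1, 2 and 2 at 72 h. The 48 h group was the one in which MMP9 was not seen at all, while every library of 12 h, 24 h and 72 h had at least 1 read.

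Summed over 4 libraries, MMP9 had 13 reads at 12 h (exact Poisson 95% interval 6.92 to 22.2), 10 at 24 h (4.80 to 18.4) and 0 at 48 h (upper bound 3.69). MMP9 was under the filter. When genes with 1 or more reads were all kept, edgeR called MMP9 lower at 48 h than at 12 h (adjusted p = 0.0011) and than at 24 h (adjusted p = 0.00574), and higher at 72 h than at 48 h (adjusted p = 0.0306). The shares of all 33535 genes called in these comparisons were 36.6%, 23.3% and 15.4% in that order. No comparison with control was called in that fit, where adjusted p was lowest at 48 h, with 0.114. Of the MMP9 exon bases 18.4% overlap a gene on the opposite strand, and 7.96% of its 75-base stretches also occur in another gene, so single reads may not belong to MMP9.

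MMP14 (ENSG00000157227, chr14:22836557-22849027, plus strand, 12 merged exons) encodes the membrane-type protease MT1-MMP, which cuts collagen at the cell surface and activates proMMP2. The control libraries had 4.42, 6.85, 6.06 and 7.79 CPM, with replicate 1 the lowest. After 12 h they had 8.08, 8.01, 8.07 and 8.80 CPM, and after 24 h 8.90, 9.66, 11.5 and 11.7 CPM. At 48 h they had 9.86, 7.97, 9.16 and 8.11 CPM, and at 72 h 13.6, 13.5, 10.9 and 11.4 CPM. Every EGF library was above the highest control library, by a narrow margin at 12 h and 48 h.

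MMP14 was called higher than control at each time, by 1.31-fold at 12 h (log2 0.39, SE 0.138, adjusted p = 0.0149), 1.66-fold at 24 h (log2 0.73, SE 0.136, adjusted p = 7.11e-05), 1.39-fold at 48 h (adjusted p = 0.00583) and 1.97-fold at 72 h (log2 0.98, SE 0.135, adjusted p = 1.1e-06). The 12 h call was lost when libraries were scaled by their totals (log2 0.11, adjusted p = 0.492), by upper quartiles (log2 0.23, adjusted p = 0.149), or when control replicate 1 was left out (log2 0.26, adjusted p = 0.071). The 48 h call was lost with the factors per gene behind the deposited normalized values (log2 0.38, adjusted p = 0.0715). In order of level, neighbours from 72 h over 24 h and 48 h to 12 h were not called different, whereas 72 h was above 48 h (1.41-fold, adjusted p = 0.00471) and above 12 h (1.50-fold, adjusted p = 0.000464). MMP14 was also called higher at 24 h than at 12 h (1.26-fold, adjusted p = 0.0379), a call that was lost with DESeq2 (adjusted p = 0.0638), without the filter (adjusted p = 0.0912), with the factors per gene (adjusted p = 0.193) and when replicate 1, 2 or 3 of 12 h or replicate 3 or 4 of 24 h was left out (adjusted p between 0.076 and 0.122).

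TIMP1 (ENSG00000102265, chrX:47582313-47586789, plus strand, 6 merged exons) encodes a secreted inhibitor of most soluble MMPs that also binds proMMP9. The control libraries had 77.2, 106, 65.6 and 80.9 CPM, with replicate 2 the highest. At 12 h they had 173, 163, 149 and 151 CPM, and at 24 h 129, 131, 120 and 115 CPM. At 48 h they had 136, 144, 105 and 112 CPM, and at 72 h 130, 110, 139 and 127 CPM. All 12 h libraries lay above all others, and replicate 3 at 48 h was the 1 EGF library that did not exceed the highest control library.

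TIMP1 was 1.93-fold above control at 12 h (log2 0.95, SE 0.116, adjusted p = 1.25e-07) and then between 1.50- and 1.53-fold at 24 h (adjusted p = 0.00014), 48 h (adjusted p = 0.0002) and 72 h (adjusted p = 7.02e-05). Compared with 12 h, TIMP1 fell by 0.37 on the log2 scale at 24 h (SE 0.114, adjusted p = 0.00984), by 0.36 at 48 h (adjusted p = 0.00771) and by 0.33 at 72 h (adjusted p = 0.013). These 3 decreases after 12 h were not called with libraries scaled by their totals, where adjusted p was 0.11, 0.634 and 0.354 in the same order, nor with upper quartiles (0.11, 0.234 and 0.189). The last of them was also lost with a minimum of 10 counts in every library (adjusted p = 0.0686) and without replicate 2 of 72 h (adjusted p = 0.0527). The 12 h group is the one whose scaling factors stood apart, as given below. The levels at 24 h, 48 h and 72 h did not differ beyond their spread (adjusted p of 0.969 for 48 h against 24 h and 0.894 for 72 h against 48 h).

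TIMP2 (ENSG00000035862, chr17:78852977-78925387, minus strand, 6 merged exons) encodes the inhibitor that takes part in proMMP2 activation with MMP14. The control libraries had 56.1, 62.3, 50.7 and 54.5 CPM. At 12 h they had 127, 130, 121 and 134 CPM, at 24 h 115, 126, 140 and 132 CPM, and at 48 h 151, 129, 147 and 134 CPM. These 3 groups overlapped with one another and lay far above control. At 72 h the libraries had 186, 168, 180 and 185 CPM, above every other library.

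TIMP2 was 2.29-fold above control at 12 h (log2 1.20, SE 0.0745, adjusted p = 1.07e-12), 2.30-fold at 24 h (adjusted p = 1.6e-12), 2.51-fold at 48 h (adjusted p = 5.88e-13) and 3.22-fold at 72 h (log2 1.68, SE 0.0751, adjusted p = 2.51e-15). The step from 48 h to 72 h was 1.28-fold (adjusted p = 0.000449). The earlier steps were not called, with an adjusted p of 0.976 for 24 h against 12 h and 0.15 for 48 h against 24 h, though the second was called with libraries scaled by their totals (adjusted p = 0.00379) or upper quartiles (adjusted p = 0.0314). Of its 75-base stretches 7.37% also occur in another gene, and 6.52% of its exon bases overlap a gene on the opposite strand.

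TIMP3 (ENSG00000100234, chr22:32801701-32863043, plus strand, 5 merged exons) encodes the inhibitor that binds to the matrix itself and also blocks ADAM and ADAMTS proteases. The control libraries had 6.23, 7.65, 8.58 and 7.26 CPM. At 12 h they had 2.12, 3.11, 2.15 and 2.77 CPM, and at 24 h 5.44, 5.14, 5.96 and 4.69 CPM. All 12 h libraries lay under all 24 h libraries, and all 24 h libraries lay under all control libraries. At 48 h the values were 12.7, 10.8, 11.1 and 10.2 CPM, and at 72 h they were 9.29, 9.50, 8.88 and 10.6 CPM. Both of these late groups lay above the control range without overlap.

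TIMP3 fell by 1.55 on the log2 scale at 12 h, to 0.342-fold of control (SE 0.136, adjusted p = 4.54e-10), and by 0.49 at 24 h, to 0.711-fold (SE 0.126, adjusted p = 0.00171). It was then 1.50-fold above control at 48 h (log2 0.59, SE 0.118, adjusted p = 0.000278) and 1.28-fold at 72 h (log2 0.36, SE 0.12, adjusted p = 0.012). Between times, TIMP3 rose 2.08-fold from 12 h to 24 h (adjusted p = 1.28e-06) and 2.11-fold from 24 h to 48 h (adjusted p = 1.74e-07), and the difference between 72 h and 48 h was not called (adjusted p = 0.141) except with libraries scaled by their totals (adjusted p = 0.0431). Without control replicate 1 the 72 h value was 0.28 on the log2 scale with an adjusted p of 0.0511.

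TIMP3 lies within SYN3 on the opposite strand without sharing exon bases. Summed over the libraries of a group, SYN3 had 32 reads in control and 10, 22, 85 and 54 reads in order of time, where TIMP3 had 658 in control and 196, 390, 966 and 733. SYN3 was called lower at 12 h (log2 -1.44, SE 0.53, adjusted p = 0.0161) and higher at 48 h (log2 1.41, SE 0.379, adjusted p = 0.0035), the same directions as TIMP3. SYN3 passed the filter mainly through its 48 h and 72 h libraries, so these calls are partly given by the filter. Whether the counting used the strand is not given in the sources used here. Reads of SYN3 that fall on TIMP3 exons therefore cannot be told apart from TIMP3 reads with certainty. TIMP1 lies in the same way within SYN1, which had at most 27 reads in any library.

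**Figure D2:**
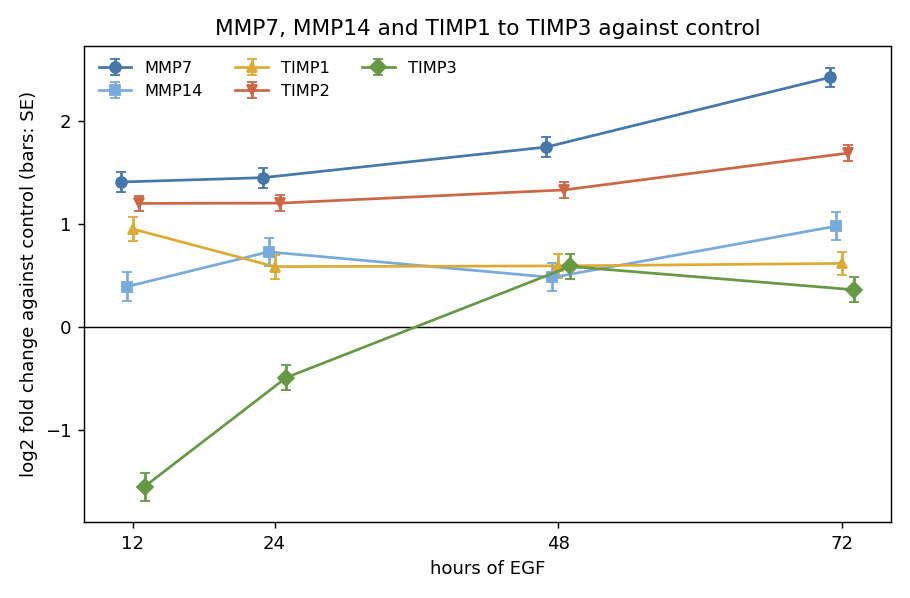
Log2 fold change against control (y axis, bars are the SE of the edgeR fit) over hours of EGF (x axis) for MMP7, MMP14, TIMP1, TIMP2 and TIMP3, with points moved slightly sideways so that bars do not cover each other. MMP7 and TIMP2 climb from 12 h to 72 h, TIMP1 drops after 12 h, and TIMP3 crosses from -1.55 at 12 h to 0.59 at 48 h. The drop of TIMP1 after 12 h was not called with libraries scaled by their totals.

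All pairwise comparisons between EGF times were made as well. Of the 6 tested genes, 3 were called for 24 h against 12 h (53.7% of all genes), 3 for 48 h against 24 h (50.2%) and 4 for 72 h against 48 h (35.7%). Across longer intervals, 3 were called for 48 h against 12 h (70.3%), 6 for 72 h against 12 h (67.6%) and 4 for 72 h against 24 h (40.2%). In the last interval, from 48 h to 72 h, the 4 called genes were MMP1, MMP7, MMP14 and TIMP2, all higher at 72 h.

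Per kb of exon, which allows levels to be compared between genes, TIMP1 was the most abundant of the 10 genes in every group, with a mean of 53.5 ± 11 CPM per kb in control (SD, n = 4) and 103 ± 7.23 at 12 h. TIMP2 came next, with 9.92 ± 0.857 in control and 31.9 ± 1.41 at 72 h. MMP7 followed with 2.94 ± 0.274 in control and 15.7 ± 1.22 at 72 h. TIMP3 had 1.61 ± 0.212 and MMP14 had 1.41 ± 0.32 CPM per kb in control. In mean level TIMP3 was under MMP14 at 12 h (0.552 ± 0.105 against 1.85 ± 0.084), 24 h (1.15 against 2.33) and 72 h (2.08 against 2.77), and above it at 48 h (2.43 against 1.97). MMP1 reached 1.13 ± 0.278 CPM per kb at 72 h, and MMP9 stayed at or under 0.0736. Exon lengths are of all merged exons of GENCODE 29, so a gene that uses few of its exons is placed too low.

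**Figure D3:**
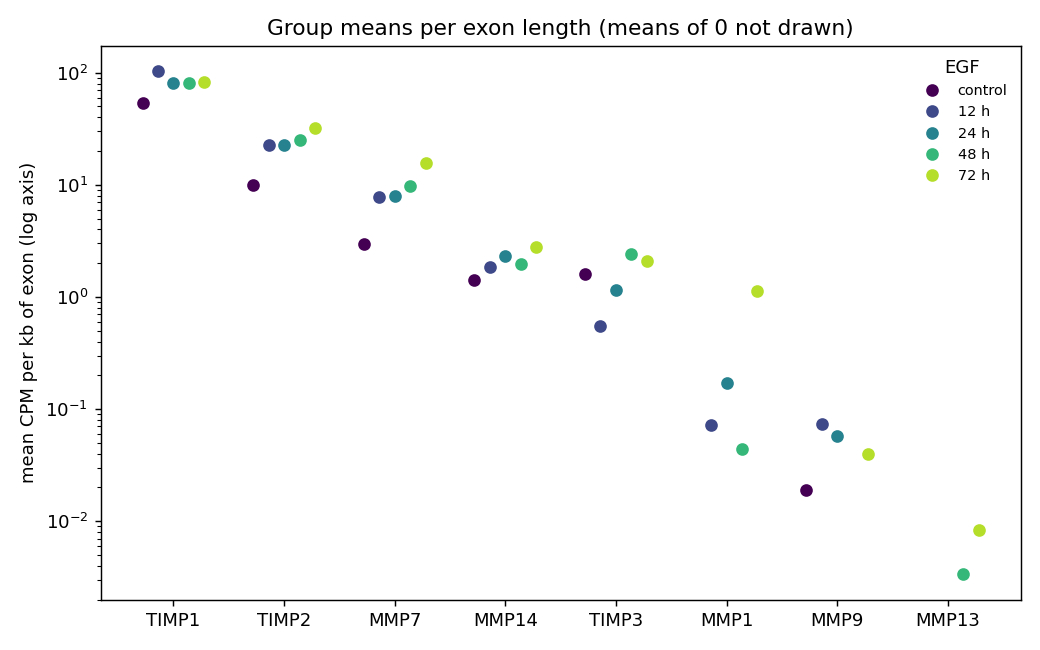
Group means of CPM per kb of merged exon (log axis) for the 8 genes with any reads, coloured by time of EGF. Means of 0, such as MMP1 in control and MMP9 at 48 h, are not drawn. TIMP1 was the highest in each group, at 53.5 to 103 CPM per kb, and MMP1 moved from 0 in control to 1.13 at 72 h.

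Summed per kb, the 7 MMP genes rose from 4.37 ± 0.405 CPM per kb in control (SD, n = 4) to 9.77 ± 0.268 at 12 h and 19.7 ± 1.5 at 72 h. MMP7 alone made up between 61.6% and 84.9% of this sum in each library. The sum leaves out MMP genes outside the 10, such as MMP15. MMP15 had 3.02 ± 0.707 CPM per kb in control, where MMP7 had 2.94, and 2.90 ± 0.236 at 72 h. The rise, the MMP7 share and the ratio below hold for the 7 genes only. The 3 TIMP genes summed to 65.0 ± 11.8 CPM per kb in control, 126 ± 7.36 at 12 h and 116 ± 9.01 at 72 h. With libraries scaled by their totals, an alternative added after seeing the data, the TIMP sum was 111 ± 6.79 at 12 h, 116 ± 12.2 at 48 h and 118 ± 10.6 at 72 h. The highest mean then no longer fell on 12 h. The TIMP sum was larger than the MMP sum in every library, and the MMP sum divided by the TIMP sum was between 0.0509 and 0.0842 in control libraries and between 0.143 and 0.208 at 72 h. These are sums of transcripts and are given as a description.

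Within a library, the ratio of TIMP2 to TIMP1 reads does not depend on the scaling. It was between 0.588 and 0.772 in control libraries, 0.734 to 0.886 at 12 h, 0.893 to 1.17 at 24 h, 0.896 to 1.40 at 48 h and 1.29 to 1.54 at 72 h. TIMP1 reads were therefore the more frequent of the pair in every control and 12 h library, and TIMP2 reads in every 72 h library. Libraries of 24 h and 48 h had ratios on both sides of 1.

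**Figure D4:**
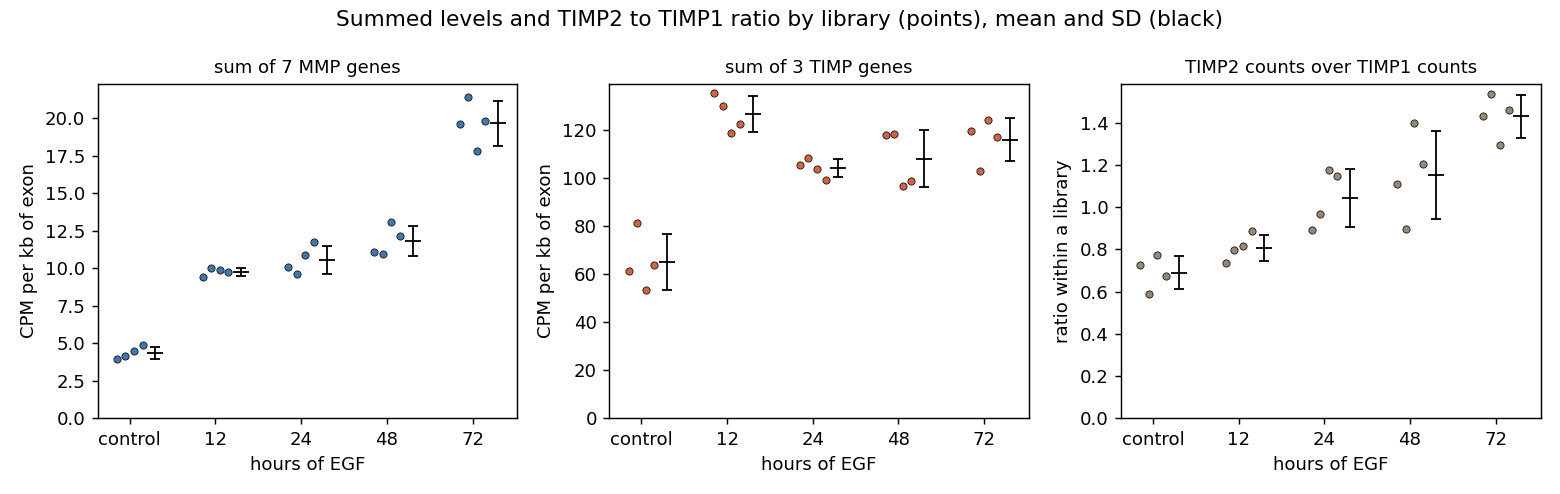
Left and middle, summed CPM per kb of exon of the 7 MMP and the 3 TIMP genes in each library. Right, reads of TIMP2 divided by reads of TIMP1 in each library. Points are libraries, black marks the mean and SD (n = 4). Sums are TMM-scaled. The MMP sum was highest at 72 h, at 17.8 to 21.4. The TIMP sum had its highest mean at 12 h, at 119 to 135, which does not hold with library totals, and the ratio passed 1 in all libraries at 72 h.

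Outside the 10 genes, 16 other MMP genes were examined. Of these, 12 were under the filter with at most 9 reads in any library, and MMP26 and MMP27 had 0 reads throughout. The 4 that passed were MMP2, MMP15, MMP24 and MMP28. Their median log2 fold change was 0.26, 0.92, 0.56 and 0.84 at 12, 24, 48 and 72 h, where the median of all genes was -0.05, -0.01, 0.01 and -0.01. None of the 4 was called lower than control at any time, where between 21.8% and 36.5% of all tested genes were. MMP24 and MMP28 passed mainly through EGF libraries in which they were high, so the medians and these calls are partly given by the filter.

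MMP2, gelatinase A, whose proenzyme is the one activated by MMP14 with TIMP2, had between 7 and 35 reads in each library. It rose 2.15-fold at 48 h (log2 1.11, SE 0.311, adjusted p = 0.00514) and 1.99-fold at 72 h (adjusted p = 0.00874), and was not called at 12 h (log2 -0.06, adjusted p = 0.896) or 24 h (log2 0.64, adjusted p = 0.0946). MMP15, the membrane-type protease MT2-MMP, had 13.4 ± 3.13 CPM in control and 19.99 ± 0.699 at 12 h (SD, n = 4), a 1.50-fold rise (adjusted p = 0.000481) that missed the threshold with libraries scaled by their totals (adjusted p = 0.051). At the later times MMP15 was not called. MMP24, the membrane-type protease MT5-MMP, rose 3.81-fold at 12 h from 0.173 to 0.667 CPM (adjusted p = 0.000417). MMP28, epilysin, rose 3.82-fold at 48 h from 0.326 to 1.29 CPM (adjusted p = 0.00127). Per kb of exon, MMP15 in control was at 3.02 CPM and MMP14, the other membrane-type gene with more than a few reads, at 1.41 CPM.

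The 4 other inhibitors of MMPs all passed the filter. All 4 were called higher than control after 12 h, while A2M was called lower from 24 h on, beside 3, 2 and 3 higher genes in order of time. Of all tested genes 32.9%, 29.2%, 24.0% and 30.6% were called higher at the 4 times. TFPI2, a Kunitz-type inhibitor of serine proteases that can also inhibit MMPs, had 1.36, 1.60, 1.41 and 1.59 CPM in the control libraries and 28.0, 25.01, 31.2 and 29.03 CPM at 12 h. This was an 18.9-fold rise (log2 4.24, SE 0.131, adjusted p = 2.92e-18). At 24 h TFPI2 was 3.51-fold above control (adjusted p = 8.47e-11), at 48 h 1.16-fold (adjusted p = 0.316) and at 72 h 2.83-fold (adjusted p = 2.81e-09). The 48 h difference was called with the factors per gene behind the deposited normalized values (log2 0.69, adjusted p = 0.0267). All 4 libraries of 48 h lay above all control libraries. The highest TFPI2 level fell on the time at which TIMP3 was lowest.

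RECK, a membrane-anchored inhibitor of MMP2, MMP9 and MMP14, had 11.4 ± 1.36 CPM in control and 22.5 ± 2.18 at 24 h (SD, n = 4), and was called higher at all 4 times, from 1.41-fold at 12 h (adjusted p = 5.17e-05) to 1.97-fold at 24 h (adjusted p = 3.38e-09). A2M, which traps proteases of all classes, had 154 ± 10.2 CPM in control and fell to 109 ± 7.39 at 24 h, 112 ± 4.73 at 48 h and 101 ± 6.02 at 72 h. This corresponds to 0.707-, 0.727- and 0.654-fold of control, with an adjusted p of 6.54e-07, 4.03e-06 and 2.37e-08. At 12 h A2M was 1.18-fold higher in the TMM-scaled fit (adjusted p = 0.00246), but its direction turned with libraries scaled by their totals (log2 -0.05, adjusted p = 0.577). TIMP4 had 0, 3, 0 and 1 reads in control and 17, 13, 14 and 20 reads at 24 h, and since it passed the filter through its EGF libraries, mainly those of 24 h, its higher level is partly given by the filter. Against the limit of 3 reads per library, TIMP4 was at least 6.28-fold higher at 24 h (adjusted p = 4.27e-07), at least 4.22-fold at 48 h and at least 3.56-fold at 72 h.

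**Figure D5:**
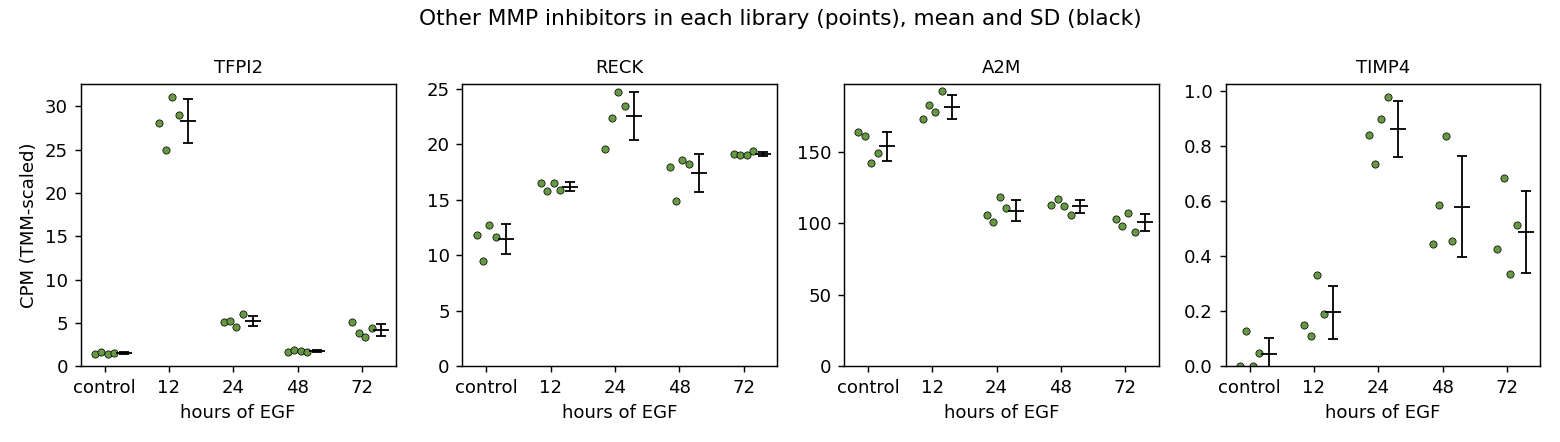
TMM-scaled CPM (linear axes, a scale of its own in each panel) of TFPI2, RECK, A2M and TIMP4 over hours of EGF. Points are the 4 libraries of a group, black marks the mean and SD. TFPI2 peaked at 12 h with 25.01 to 31.2 CPM, TIMP4 and RECK were highest at 24 h, and A2M was under its control range from 24 h on.

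Proteases and receptors that activate MMPs or hold them at the cell surface were examined as a list of 13 genes, of which 12 passed the filter. At every time 8 were called higher, and 1, 0, 1 and 2 were called lower in order of time. The shares of all tested genes were 32.9%, 29.2%, 24.0% and 30.6% higher and 36.5%, 29.6%, 21.8% and 31.0% lower. Their median log2 fold change was 1.18, 0.82, 0.75 and 0.94 at the 4 times. CD44, FURIN, LCN2, PLAT, PLAU and PLAUR were among the genes called higher at each time. PLAT, the tissue plasminogen activator, had 0.277 CPM in control and 49.5 CPM at 72 h (log2 7.47, SE 0.255, adjusted p = 4.09e-17). PLAT passed the filter through its EGF libraries, so its higher level and its part in the counts above are partly given by the filter. PCSK6, a proprotein convertase, fell by 1.37 on the log2 scale at 48 h (SE 0.137, adjusted p = 1.74e-08). LRP1, an endocytic receptor for proteases and their inhibitors, was called higher at 24 h (1.52-fold, adjusted p = 0.00964), 48 h (1.91-fold, adjusted p = 0.000266) and 72 h (2.23-fold, adjusted p = 1.03e-05), the first of which was lost with the factors per gene behind the deposited normalized values (adjusted p = 0.103). At 12 h LRP1 fell by 0.55 (adjusted p = 0.022), but with those factors its direction turned (log2 0.32, adjusted p = 0.635). FURIN, which cleaves the propeptide of MMP14, was not called at 48 h (adjusted p = 0.298) or 72 h (adjusted p = 0.766) with those factors.

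Of 12 ADAM and ADAMTS proteases, the wider metalloproteinase group that TIMP3 also inhibits, 7 passed the filter. In order of time 4, 3, 3 and 3 of them were called higher, and ADAM10 was called lower at the last time. With 32.9%, 29.2%, 24.0% and 30.6% of all tested genes called higher, counts of this size say little about the list. The median log2 fold change was 0.49, 0.18, 0.14 and 0.10. ADAM9 rose from 62.8 to 220 CPM at 12 h (log2 1.81, SE 0.0932, adjusted p = 3.16e-14). ADAMTS4, an aggrecanase, rose from 3.27 to 11.2 CPM at 12 h (log2 1.77, SE 0.123, adjusted p = 7.16e-12). ADAM10 fell by 0.29 at 72 h (adjusted p = 0.00196), which was not called with the factors per gene (adjusted p = 0.141).

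Matrix proteins that MMPs cut were examined as a list of 16 genes, 12 of which passed the filter. Of these, 8 were called higher and 2 lower at each of the first times (12 h and 24 h), and 9 higher and 1 lower at each of the last (48 h and 72 h). Among all tested genes, 32.9%, 29.2%, 24.0% and 30.6% were called higher in order of time, and 36.5%, 29.6%, 21.8% and 31.0% lower. The median log2 fold change was 1.10, 2.17, 1.92 and 2.86 at 12, 24, 48 and 72 h, and at 12 h it was 0.77 with COL17A1, a gene at the limit of detection in control, set to its lower bound. COL17A1, COL1A1, FN1, HSPG2, LAMA3, LAMB3 and TNC were among the genes called higher at all times, though the 12 h call of COL17A1 (adjusted p = 0.0397) was lost with library totals (adjusted p = 0.106), upper quartiles (adjusted p = 0.0714) and DESeq2 (adjusted p = 0.0705). LAMB3, a chain of the epithelial laminin of hemidesmosomes, rose from 1.50 to 87.1 CPM at 12 h (log2 5.85, SE 0.138, adjusted p = 3.94e-20). COL17A1, a transmembrane collagen of hemidesmosomes, was at least 59.7-fold higher at 72 h (adjusted p = 5.34e-15). COL17A1 and COL4A6 passed the filter mainly through EGF libraries in which they were high. Their higher calls, and with them the counts and medians of this list, are therefore partly given by the filter. COL4A2 and COL4A5, chains of basement membrane collagen, fell by 2.33 (SE 0.149, adjusted p = 1.65e-12) and by 1.41 (SE 0.132, adjusted p = 1.64e-09) on the log2 scale at 12 h. COL4A2, like TIMP3, was not under control at 48 h, where its log2 fold change was 0.03 (adjusted p = 0.847).

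Transcription factors of the AP-1, ETS and RUNX families, which are known to act on MMP promoters, were examined as a list of 14 genes, all of which passed the filter. In order of time 13, 10, 9 and 13 of them were called higher, and 0, 2, 2 and 0 were called lower. The 12 h calls of JUND and ELF3 were lost with library totals (adjusted p = 0.77 and 0.606) and upper quartiles (0.218 and 0.112). FOSL2 at 24 h was lost with both as well (0.636 and 0.0969). With the factors per gene, calls of FOSL2 at 24 h (0.143) and 72 h (0.0637) and of FOSB at 48 h (0.231) were lost. For all tested genes the shares were 32.9%, 29.2%, 24.0% and 30.6% higher and 36.5%, 29.6%, 21.8% and 31.0% lower. The median log2 fold change was 1.14, 0.89, 0.64 and 0.75. FOSL1, an AP-1 subunit, rose from 2.78 to 248 CPM at 12 h (log2 6.47, SE 0.255, adjusted p = 7.7e-14), stood at 25.7 CPM at 48 h and at 93.4 CPM at 72 h. ETS1 rose from 41.8 to 328 CPM at 12 h (log2 2.97, SE 0.097, adjusted p = 8.69e-18). FOS, another AP-1 subunit, was called higher at 12 h (1.77-fold, adjusted p = 0.000417), 24 h (1.57-fold, adjusted p = 0.00463) and 72 h (1.70-fold, adjusted p = 0.0011), and fell by 0.65 at 48 h (adjusted p = 0.0106). The factors per gene did not give the calls of 24 h (adjusted p = 0.0977) and 48 h (adjusted p = 0.665). JUND fell by 0.53 at 24 h (SE 0.11, adjusted p = 0.000209). FOS, FOSB, FOSL1, FOSL2 and JUNB had their lowest mean EGF level at 48 h with TMM, and JUN and JUND had theirs at 24 h. For FOSL2 (57.61 CPM at 48 h, 59.89 at 24 h) and JUNB (21.59 and 22.35) these times lay close together. Library totals moved the median gene by 0.154 on the log2 scale for 48 h against 24 h. The lowest time of FOSL2 and JUNB may therefore depend on the scaling. No test between EGF times is given for these factors. MMP1 and MMP9 had their lowest EGF level at 48 h too, with 8 and 0 reads summed over the group. MMP1 at 48 h was not called different from 12 h (adjusted p = 0.397). MMP7, in contrast, was higher at 48 h than at 24 h (1.23-fold, adjusted p = 0.00723). A link between these courses was not tested.

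Genes most like each tested MMP or TIMP across the 20 libraries are named by Pearson's r of log2 CPM, as a description over libraries that share their groups and scaling. For MMP7 these were SLC22A15 (r = 0.987) and ZNF365 (0.982), and for TIMP2 they were XDH (0.989), S100P (0.987) and BHLHE40 (0.986). For MMP1 they were SEC23IP (0.952), ANKRD1 (0.949) and AC004816.1 (0.947), and for MMP14 PTPRJ (0.957), CPEB4 (0.937) and IRAK3 (0.93). For TIMP1 they were OLFML2A (0.974), VAT1 (0.961) and FTSJ1 (0.953), and for TIMP3 SIRT5 (0.974), LPXN (0.974) and DENND2D (0.974). Among the tested genes themselves, MMP7 and TIMP2 had the highest r, 0.962, and TIMP1 and TIMP3 the lowest, -0.442.

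The cell line was checked against cell type markers. The 6 epithelial markers, EGFR and keratins among them, summed to between 4829 and 5278 CPM in control libraries, 18450 to 19200 at 12 h and 7870 to 8601 at 72 h. EGFR gave most of this sum, with means of 3474 CPM in control and 5867 at 72 h. CDH1, which encodes E-cadherin, was called lower at 24, 48 and 72 h (0.711-fold at 72 h, adjusted p = 1.11e-05) and EPCAM at 48 h and 72 h (0.796-fold at 72 h, adjusted p = 8.2e-05), calls that the factors per gene did not give (adjusted p between 0.0961 and 0.665). At 12 h all 6 were called higher, beside 32.9% of all tested genes, CDH1 by 1.42-fold and EPCAM by 1.18-fold. The EPCAM direction turned with libraries scaled by their totals, and the CDH1 call was lost with the factors per gene (adjusted p = 0.0545). KRT8 and KRT18 were called higher at 72 h as well (1.64- and 1.83-fold, adjusted p = 8.57e-06 and 2.53e-09). The 7 fibroblast markers summed to 5.12 to 7.95 CPM in control and 13.1 to 14.99 CPM at 72 h, and COL1A1 was the 1 of them that passed the filter, with LUM at 0 in every group but 72 h. The 6 leukocyte markers summed to 7.23 to 9.80 CPM in control and 36.8 to 44.2 CPM at 72 h, of which CD68 gave 1.15 and 26.7 CPM. CD68 shares 81.7% of its exon bases with another gene on the same strand, while PTPRC, present on all leukocytes, had at most 8 reads in any library. All 4 leukocyte markers that passed the filter were called higher at 48 h (24.0% of all tested genes) and at 72 h (30.6%). At 72 h CSF1R was 2.19-fold, CD14 1.47-fold and LYZ 3.29-fold above control (adjusted p = 1.35e-06, 0.00638 and 0.00017). LYZ passed the filter mainly through EGF libraries, so its calls are partly given by the filter. At 12 h CD14 and CSF1R were called lower. The 4 endothelial markers summed to at most 5.58 CPM, with CDH5 at 0 at 48 h and 72 h. The part of these markers in the results was not tested. In bulk RNA, more cells that express a gene and more RNA per cell cannot be told apart.

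Mitochondrial reads made up between 7.69% and 16.9% of a library, with group means of 9.41% at 12 h and 15.04% at 72 h, and the part of this share in the results was not tested. Scaling by library totals in place of TMM moved the median of all genes by -0.28, -0.14, 0.01 and -0.08 on the log2 scale, in order of time. Of the genes called at 12 h, 47.4% were higher with TMM and 30.2% with library totals, and at 24 h these shares were 49.6% and 36.3%. No direction against control of MMP7, MMP14, TIMP1, TIMP2 or TIMP3 turned under any scaling tried.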

How the data were processed

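RNA was sequenced as single-end 75-base reads from MDA-MB-468 cells, 20 libraries in 5 groups of 4. The authors deposited whole-number read counts per gene (genome build hg38 and DESeq2 are named in the submitters' processing notes), together with normalized values (unit score here) whose factor to the counts varies between genes. The aligner, counter, annotation and strand setting are not given in the sources used here. The deposited fold changes and p-values of the authors' own comparisons were not used. All 10 deposited tables held identical counts, so 1 was read. Replicates differed by more than sampling noise in each of 30 pairs.

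Counts were analysed with edgeR 4.0.16 in R 4.3.3: TMM scaling, filterByExpr (16522 of 60271 genes kept), 1 quasi-likelihood model over 20 libraries (15 residual degrees of freedom), 10 contrasts, Benjamini-Hochberg adjusted p under 0.05. Log2 fold changes use a prior count of 0.125, and their SE is the unshrunken log2 fold change divided by the root of F. Where every library of a group had at most 3 counts, folds are bounds against 3 counts per library. In simulated data for 12 h against control (15567 genes), 167 of 192 changed genes were recovered with 8 false calls. Few genes changed in that simulation, whereas 69.4% of tested genes were called in the real comparison. It therefore does not give the error rate of the real comparison, nor does it test the TMM assumption. Positions and exon lengths come from GENCODE 29 (GRCh38), promoters from RefSeq. Alternatives were other scalings, DESeq2 1.42.0, other filters, the 8 libraries compared alone, a replicate block, another prior count and leaving out each library. Genes named are the 10 genes, all tested other MMPs and MMP inhibitors, up to 2 extremes in each direction per further list, and the 3 most correlated genes. Some genes that this rule names are not reported here. The genes and lists were chosen with earlier results of these data known. FURIN, the overlapping genes and the marker genes named singly were chosen after their values were seen. P-values measure the spread between cultures of 1 cell line.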

Additional observations from a re-analysis of the deposited data

Results flagged for a closer look

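Levels of the 10 genes were examined for a library far from the other 3 of its group, in 35 groups of 4 libraries with any reads. Chance flags about 1 in 20 where values are continuous. This share does not hold for groups of few reads, such as those of MMP1 before 72 h, MMP9 and MMP13. In the 24 h group, MMP1 had 0.0989 CPM (2 reads) in replicate 1, under the other 3 libraries with 7 or 8 reads. In the 48 h group, MMP13 had 0.038 CPM in replicate 3, which is a single read where the others had 0. Such a group is always flagged. In the 12 h group, MMP14 had 8.80 CPM in replicate 4, above the other 3 libraries at 8.01 to 8.08 CPM.

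TIMP3 was lower than control early and higher than control late, and the difference between the times was itself tested. Its log2 fold change was 2.13 for 48 h against 12 h and 1.08 for 48 h against 24 h. It was 1.91 for 72 h against 12 h and 0.85 for 72 h against 24 h, and adjusted p was at most 8.43e-06 in these 4 comparisons (edgeR's quasi-likelihood test).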

How the results depend on the processing

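The counts of the 10 genes called in each of the 10 comparisons stayed within 1.5 times their value under every alternative run (170 in all). Of 993 alternative values of 56 log2 fold changes, 940 kept their direction and their side of the threshold, 21 lost a call, 10 gained one and 22 turned sign. The turned values belong to 6 fold changes of single genes between EGF times, none of them called with TMM, and none (0) to a comparison with control. For MMP14 at 48 h against 12 h, the factors per gene from the deposited normalized values, an alternative added after seeing the data, gave -0.0313. For TIMP1, 48 h against 24 h was -0.0021 with DESeq2 and -0.0191 with the factors per gene, and 72 h against 48 h was -0.0607 with library totals and -0.0212 with upper quartiles. For TIMP2, 24 h against 12 h was -0.0158 with DESeq2 size factors, -0.019 with DESeq2 and -0.0344 without the filter. Leaving out 1 library gave -0.0146 to 0.0899 for MMP7 (24 h against 12 h) and -0.0433 to 0.0516 for TIMP2 (24 h against 12 h). For TIMP1 it gave -0.073 to 0.0775 (48 h against 24 h), -0.0483 to 0.1026 (72 h against 48 h) and -0.019 to 0.0924 (72 h against 24 h). The cause of these changes was not tested.

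TIMP2 at 48 h against 12 h, not called with TMM, was called with library totals, upper quartiles and a minimum of 10 counts in every library (adjusted p between 3.04e-05 and 0.0131). MMP14 at 48 h against 12 h was called with library totals (adjusted p = 0.0125).

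Replicate numbers did not pair the libraries: over 40 same-numbered pairs the correlation of deviations ran from -0.239 to 0.348 (median 0.009), and 5 pairs exceeded 0.1. With the replicate number as a block, 6 of the genes were called against control at each time, as without it, and no call of a gene changed.

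With 4 libraries a group and few reads, MMP1 before 72 h, MMP9 and MMP13 rest on single reads. Counting intervals and limits cover counting error only. Exon overlaps and shared stretches come from GENCODE 29, and the annotation of the counts is not given in the sources used here.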
